A study of Homo sapiens and Mus musculus with 20 samples.

Results

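Sodium lactate (NALA) was injected into aged mice and the gastrocnemius, a limb muscle of mostly fast fibres, was profiled by bulk RNA sequencing. The experiment held 4 of the 20 libraries of the series, 2 labelled NALA and 2 labelled Control5, and its members were chosen by these titles. All mice were wild-type C57BL/6, and those of the NALA experiment were 20 months old and received injections into muscle for 1 week. Neither the sex of these mice, what the controls received, nor the number of animals behind a library is given, so the p-values below measure the spread between libraries, which may be technical. The question was which genes change in old muscle when lactate, from which cells can make the lactyl mark on histones, is supplied from outside.

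Lactate is exported by glycolytic fibres and taken up and oxidised by oxidative ones. Its oxidation starts with conversion to pyruvate. Inside the mitochondrion pyruvate dehydrogenase turns pyruvate into acetyl-CoA, and the pyruvate dehydrogenase kinases close this gate by phosphorylation while fatty acids are burned. Muscle fibres also hold the neuromuscular junction and the sarcomere, and lie in a matrix made mostly by fibroblasts.

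Values are reads of each gene after division by the size factor of the library, called normalised reads below. The 4 libraries held 13252360 to 14190054 reads over 9255 listed genes. Most nuclear gene names in this list could not be read at face value. Of 15 markers of skeletal muscle fibres 8 were listed, and Acta1, Tnnt3, Tnni2, Tnnc2, Myl1, Atp2a1 and Pvalb were not, while Ckm, the muscle creatine kinase, had a mean of 16.8 normalised reads in Control5. Of 40 housekeeping genes 13 were listed. The olfactory receptor name Olfr286 had a mean of 70352 in Control5. Names were therefore used only where the level of the genes around them fitted. As anchors, 6138 mouse protein-coding genes were taken whose human namesake had a mean of at least 1000 in 4 control libraries of IMR90, a human fibroblast line of the same series. An anchor passed if its Control5 mean was at least 100.

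Passing anchors lay together in 4 stretches of the genome. In GENCODE M21 on mm10 these were chr4:3574875-59904737 with 100 of 111 anchors passing, chr6:4003904-30455179 with 34 of 36, chr15:10446756-38692446 with 38 of 41, and chr18:3382988-10818704 with 13 of 13. In all 92.0% of the 201 anchors inside passed, against 24.0% of the 5937 outside, a contrast set by the rule itself. The order of the levels was also described, which is not independent of the rule, since both read the Control5 levels of the anchors. Of the anchors outside, 56.1% were not listed and entered at a level of 0. Spearman's rho between the IMR90 and the Control5 level was 0.45 across anchors inside and 0.032 across anchors outside, as a description over genes of the same libraries. None of the 15 fibre markers lies in a stretch, but other genes of the fibre do, and Tpm2 (beta-tropomyosin), Flnc (filamin C) and Lmod2 (leiomodin 2) had 301324 to 306370, 40887 to 41793 and 6374 to 6435 normalised reads in Control5. The stretches held 424 listed genes, and 417 of these, with means of 10 or more across all 4 libraries, entered the test. They and the genes of the mitochondrial genome are the genes described by name.

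**Figure D1:**
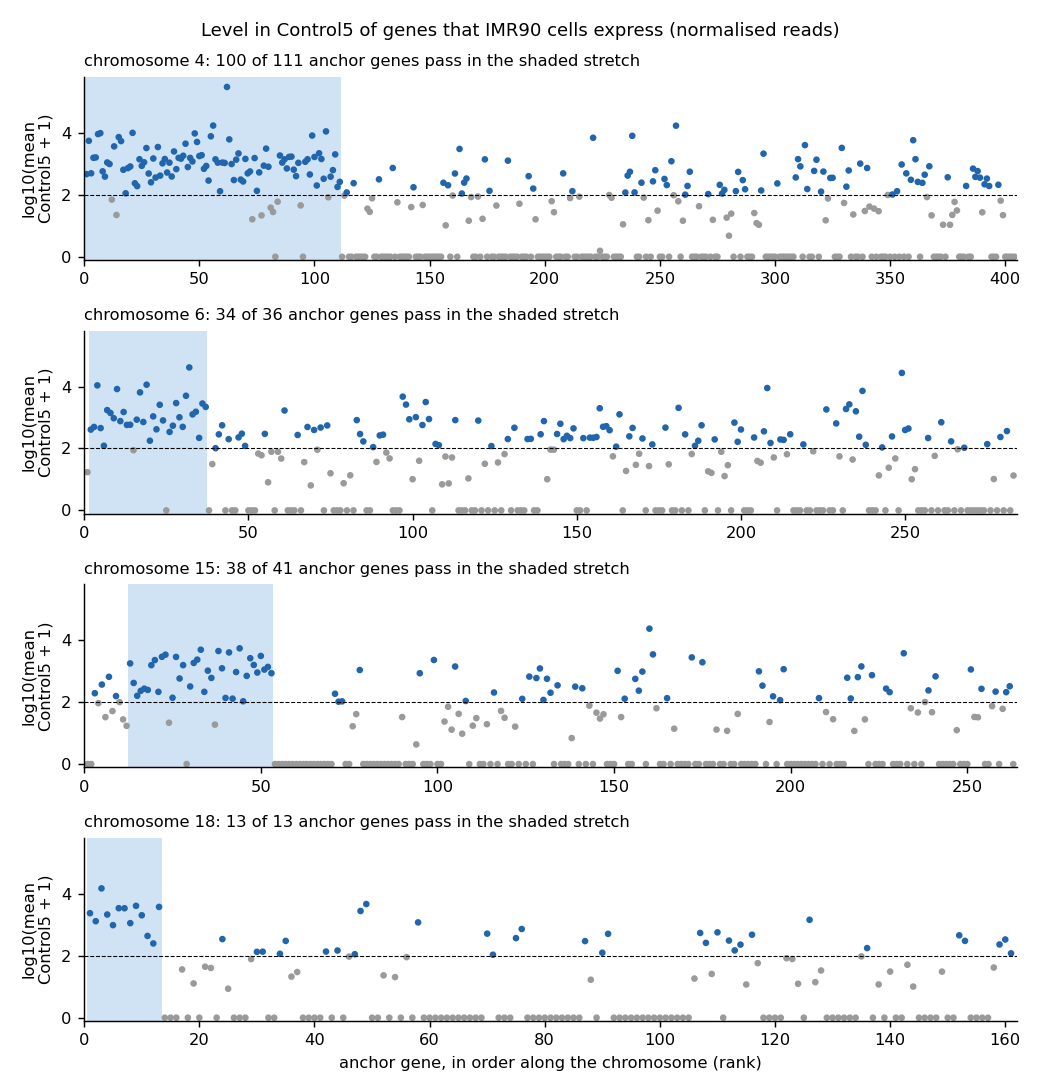
Each point is an anchor gene, placed by its order along chromosomes 4, 6, 15 and 18 (x axis, rank) and its mean level in the Control5 libraries (y axis, log10 of normalised reads + 1, with 0 for a gene not listed). Blue anchors reach the level of 100 shown by the dashed line, and in the shaded stretches 100 of 111, 34 of 36, 38 of 41 and 13 of 13 do so.

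The difference between NALA and Control5 was small, and the 2 libraries of each group were close to each other. Whether it would recur in other animals was not tested. Pearson's r across genes, on the log2 scale, was 0.984 between the NALA libraries and 0.981 between the Control5 libraries, and 0.965 to 0.968 between libraries of different groups. The median absolute log2 fold change over 8895 genes, between means of 2 libraries, was 0.23. Between single replicate libraries the median absolute log2 difference was 0.17 in NALA and 0.18 in Control5, so the measures are unlike. Calls needed both an absolute log2 fold change above 1 and a limma p, adjusted by Benjamini-Hochberg across all genes tested, below 0.05. By this rule 298 symbols (3.35%) were called, 139 higher (1.56%) and 159 lower (1.79%). At the adjusted p alone 1368 (15.4%) passed, 6.32% higher and 9.06% lower. By comparison, the second muscle experiment, in which the gastrocnemius of 11-month-old female mice was injected with MS-275, a blocker of histone deacetylases, and compared with its own controls (Control4), had a median absolute log2 fold change of 0.71 and replicate differences of 0.49 and 0.33. It had 1539 calls among 9494 genes (16.2%), and 16.6% passed at the adjusted p alone.

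The direction of small changes depended on the scaling. Normalised reads summed to a mean of 12819716 with NALA and 14695657 in Control5, and 69.2% of this difference was held by the 10 most abundant nuclear symbols, all lower with NALA at a median log2 fold change of -0.46. Of these 10 symbols Tpm2 is the one whose name lies in a stretch. Scaling the libraries to equal totals raised the median over the 8895 genes from 0.0049 to 0.20 on the log2 scale, and the calls over all symbols became 250 higher and 100 lower (71.4% higher, against 46.6%). Changes are given on the deposited scale, with the counts of each group at equal totals beside them.

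Inside the stretches 8 genes were called higher and 5 lower, against backgrounds of 1.56% and 1.79%. Together they were 3.12% of 417, close to the 3.35% of all symbols. At the adjusted p alone, 53 rose and 59 fell against backgrounds of 6.32% and 9.06%, in all 26.9% of the genes against 15.4% of all symbols. The NALA and Control5 libraries did not overlap in 270 of the 417 genes (64.7%), against 54.2% of all genes tested. The median log2 fold change inside was 0.027, against 0.0049 over all genes. After scaling to equal totals the counts were 160 higher and 21 lower at the adjusted p, and 13 and 3 called. Groups formed below after the values were seen can be set beside these counts but cannot test for an excess. Of the 13 genes called on the deposited scale, 11 stayed called when any 1 library was left out, and 2, Pdk4 and Npr3, when the variance model took no account of level. Of the 13, 4 had a mean under 100 in the higher group, and these were Mkx, Cttnbp2, Wnt2 and Atp6v0d2.

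**Figure D2:**
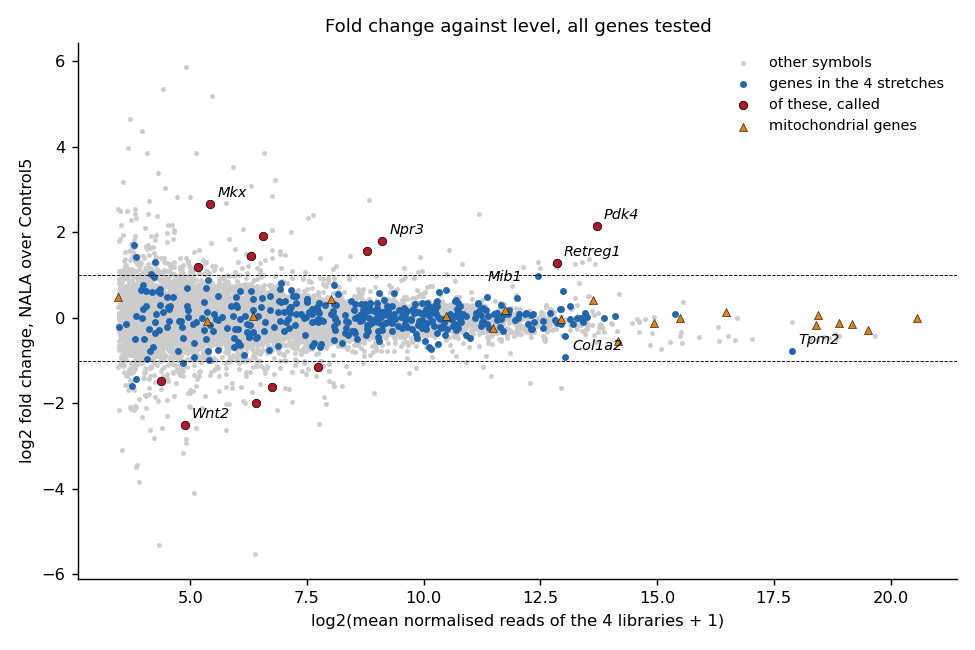
Each point is one tested symbol, with its level (x axis, log2 of the mean normalised reads + 1) and its log2 fold change, NALA over Control5 (y axis). Genes of the 4 stretches are blue, the 13 called among them red, mitochondrial genes are orange triangles and all others grey. Pdk4 and Retreg1 stand out at high level with log2 fold changes of 2.14 and 1.28.

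Fuel choice was led by Pdk4, which encodes pyruvate dehydrogenase kinase 4, the enzyme that closes the entry of pyruvate into oxidation (chr6:5483351-5496309, minus strand). It measured 21748 and 21777 normalised reads in the NALA libraries and 4941 and 4908 in Control5. The NALA libraries thus lay 4.42-fold above the controls, and replicates differed by less than the width of a point in the plot of values by library. The log2 fold change was 2.14 with an SE of 0.042 (limma, adjusted p 1.37e-25). Pdp1, the phosphatase that reopens the same gate (chr4:11958184-11966452), moved the other way. It measured 2955 and 3001 with NALA and 3667 and 3658 in Control5, 18.7% lower without overlap (log2 fold change -0.30, SE 0.053, limma adjusted p 1.11e-04), but with equal library totals it was at -0.10 and did not pass (limma adjusted p 0.185). Pdk4 and Pdp1 were the 2 genes of a list of 22 for lactate and pyruvate handling that lay in a stretch, and the carriers and lactate dehydrogenases of that list did not. These 2 also stood in a group of 10 fuel genes put together after the values were seen. Of the other 8, Hsdl2, a dehydrogenase-like protein of peroxisomes, rose (0.33, limma adjusted p 1.57e-04). Grhpr, the glyoxylate and hydroxypyruvate reductase, measured 1004 and 1020 with NALA and 1514 and 1554 in Control5 and fell by 0.60 on the log2 scale (limma adjusted p 9.44e-08). Enho, which encodes the secreted peptide adropin, and Aco1, the cytosolic aconitase, fell by 0.66 and 0.24, and neither passed with equal library totals. Decr1, an enzyme of the oxidation of unsaturated fatty acids, Ppp1r3a, the muscle glycogen-targeting subunit of protein phosphatase 1, and Aqp7, a glycerol channel, had log2 fold changes of -0.089, -0.0090 and 0.065 and did not pass. The group of 10 held 2 rises and 4 falls, or 4 and 1 at equal totals. On the deposited scale 6.32% of all symbols rose and 9.06% fell. At equal totals 160 of the 417 genes of the stretches rose and 21 fell.

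Of 10 genes of membrane receptors, a group formed after the values were seen, Musk, Npr3 and Epha7 were called higher. So were 1.56% of all symbols and 8 of the 417 genes of the stretches, but a group formed this way cannot test for an excess. Musk, the muscle-specific kinase that gathers acetylcholine receptors under the nerve ending (chr4:58285960-58374303), measured 648 and 671 with NALA and 191 and 257 in Control5. Both NALA libraries were above both controls, 2.95-fold by the means (log2 fold change 1.57, SE 0.12, limma adjusted p 1.41e-11). Npr3, the clearance receptor for natriuretic peptides (chr15:11839896-11907287), measured 828 and 883 with NALA and 246.3 and 246.4 in Control5, a 3.47-fold rise (log2 fold change 1.79, SE 0.097, limma adjusted p 7.49e-15). Npr2, the receptor for C-type natriuretic peptide, fell, with 1618 and 1667 against 2261 and 2076 (log2 fold change -0.40, limma adjusted p 2.24e-05). Epha7, an ephrin receptor, measured 128 and 100.1 with NALA and 33.3 and 50.8 in Control5 (log2 fold change 1.44, SE 0.25, limma adjusted p 8.94e-05). Tgfbr1, the type I receptor for TGF-beta, rose 1.58-fold from 1159 and 1037 to 1774 and 1699 (limma adjusted p 2.08e-08). Cntfr, the receptor subunit for ciliary neurotrophic factor, fell by 0.36 (limma adjusted p 0.0242) and did not pass with equal totals. Il11ra1, Met, Lpar1 and Smo had log2 fold changes between -0.038 and 0.31 and did not pass. The 10 receptors held 4 rises and 2 falls, or 7 and 1 with equal library totals. Over the 417 genes of the stretches the counts were 53 and 59, or 160 and 21.

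Among proteins of the endoplasmic reticulum and secretion, Retreg1, the receptor by which the reticulum is delivered to autophagy (chr15:25843180-25973687), was called. It measured 10512 and 10376 with NALA and 4411 and 4165 in Control5, so that both NALA libraries were 2.44-fold above the controls by the means (log2 fold change 1.28, SE 0.047, limma adjusted p 4.94e-19). Penk, which encodes the precursor of the enkephalins (chr4:4133531-4138819), measured 132 and 162 with NALA and 54.4 and 26.4 in Control5. Its control libraries differed 2.06-fold, yet neither reached the NALA libraries (log2 fold change 1.92, SE 0.26, limma adjusted p 2.33e-06). Cttnbp2, a cortactin-binding protein, was called at low level, with 51.8 and 45.9 against 17.8 and 24.3 (log2 fold change 1.19, limma adjusted p 0.0174). Its call was lost without NALA replicate 1 or 2 or Control5 replicate 1.

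Among matrix and fibroblast genes, Col1a2, the alpha-2 chain of type I collagen (chr6:4504814-4541544), fell. It measured 5815 and 5740 with NALA and 11147 and 10636 in Control5, 47.0% lower (log2 fold change -0.91, SE 0.045, limma adjusted p 9.34e-16). Col1a2 was the 1 gene of a list of 7 fibroblast markers that lay in a stretch. In bulk muscle, fewer cells of a type and less RNA per cell cannot be told apart. C1qtnf3, a secreted protein with a C1q domain (chr15:10952332-10980150), measured 42.0 and 26.2 with NALA and 132 and 136 in Control5 (log2 fold change -1.98, SE 0.25, limma adjusted p 6.20e-07). Osr2, a zinc-finger factor of connective tissue (chr15:35296098-35303305), measured 42.9 and 61.8 against 171 and 149 (log2 fold change -1.61, SE 0.21, limma adjusted p 1.39e-06). The signalling protein gene Wnt2 fell by 2.52 on the log2 scale (SE 0.49, limma adjusted p 3.92e-04), from 42.2 and 53.9 to 14.3 and 3.74, the latter a handful of reads. Svep1, an extracellular protein, Adamts12, a matrix protease, and Sdc2, the proteoglycan syndecan-2, fell by 0.73, 0.69 and 0.38. Mkx, a homeobox factor of tendon (chr18:6934518-7004780), measured 81.3 and 65.5 with NALA and 13.3 and 8.46 in Control5 (log2 fold change 2.67, SE 0.37, limma adjusted p 3.38e-06). Of 10 matrix and fibroblast genes tested, a group formed after the values were seen that leaves out C1qtnf3 and Wnt2, 5 fell, 1 rose and 4 did not pass. Their median log2 fold change was -0.24, against 0.0049 over all genes. Given how the group was formed, these medians describe it and test nothing. At equal totals 4 of the 10 fell and 3 rose, at a median of -0.047 against 0.20 over all genes, and Sdc2 no longer passed.

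Among genes of the immune response, Irf5, an interferon regulatory factor of myeloid cells (chr6:29526625-29541871), measured 138 and 124 with NALA and 323 and 264 in Control5, with the NALA libraries below both controls (log2 fold change -1.16, SE 0.15, limma adjusted p 4.94e-07). Its log2 fold change at equal library totals was -0.96, short of the fold limit. Lyn, a kinase of blood cells, and Ddx58, the RNA sensor RIG-I, fell by 0.49 and 0.60 (limma adjusted p 0.00141 and 3.77e-04). Atp6v0d2, a proton pump subunit of osteoclasts and macrophages, was called lower at the edge of detection, with 14.3 and 6.55 against 25.5 and 32.8 (log2 fold change -1.48, limma adjusted p 0.0364). It lost its call without NALA replicate 2 or either control library. Ripk2, a kinase of innate signalling, rose (0.65, limma adjusted p 0.00707). Of 10 such genes tested, again grouped after the values were seen, 4 fell, 1 rose and 5 did not pass, against 59 falls and 53 rises among the 417 genes of the stretches. With equal totals 2 of the 10 fell (Irf5 and Ddx58), 1 rose and none was called. Cd72, Tfec and Trim14 had log2 fold changes of -0.97, -1.43 and -1.06 at values under 50 normalised reads and did not pass. None of the 6 macrophage markers fixed as a list lay in a stretch, so the part of such cells in these values was not tested.

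**Figure D3:**
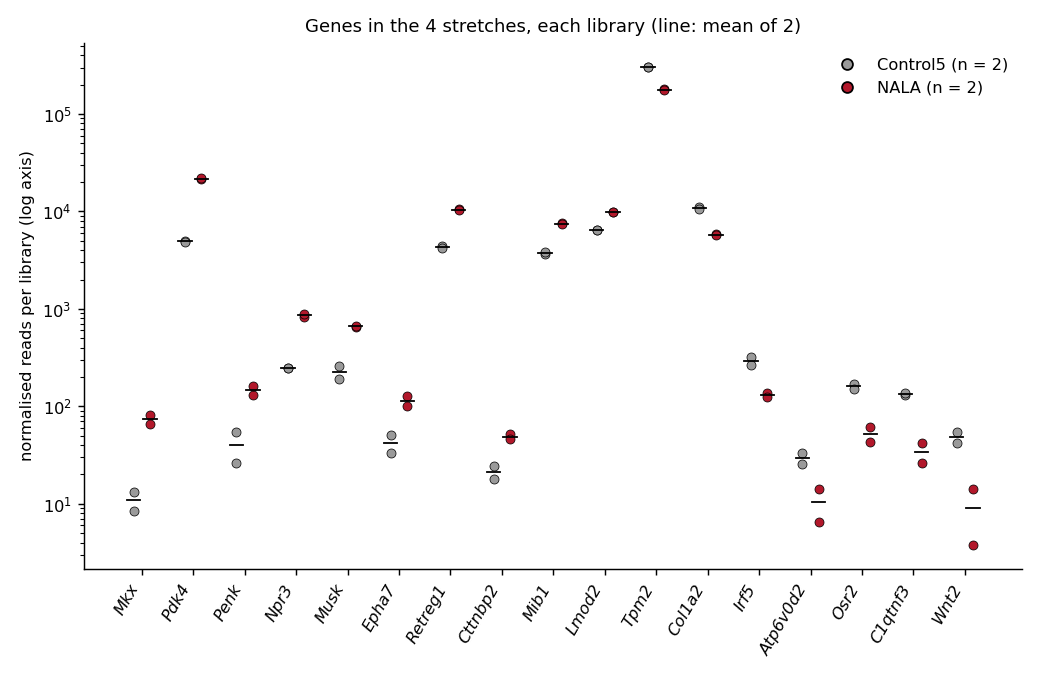
Normalised reads (y axis, log scale) of 17 genes in the 4 libraries, with Control5 in grey and NALA in red, 1 point per library and a line at the mean of 2. For each gene drawn the 2 groups do not overlap, from Tpm2, with means of 178024 and 303847, down to Atp6v0d2, whose highest library is at 32.8.

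In the contractile apparatus, Tpm2 (chr4:43514711-43523765), which lies along the thin filament, measured 178564 and 177485 with NALA and 306370 and 301324 in Control5. It was 41.4% lower with replicates that differed by little (log2 fold change -0.77, SE 0.032, limma adjusted p 1.71e-17), and it was the 1 gene of a list of 43 contractile genes that lay in a stretch. Lmod2, which lengthens thin filaments at their pointed ends (chr6:24597762-24605414), rose 1.53-fold, from 6374 and 6435 to 9778 and 9859 (log2 fold change 0.62, SE 0.044, limma adjusted p 5.43e-12). Cavin4, a caveolar protein of muscle, rose by 0.21 (limma adjusted p 0.00105). Tmod1, which caps the pointed end, Flnc, Svil (supervillin), Capza2 (a capping protein) and Tln1 (talin) had log2 fold changes between -0.066 and 0.080 and did not pass. At equal totals Tpm2 was at -0.57 and still lower, and 6 of the 8 genes of this group, chosen after the values were seen, were higher. So were 160 of the 417 genes of the stretches. Mir133a-1hg, the host transcript of a muscle microRNA (chr18:10781723-10785883, minus strand), measured 139 and 163 with NALA and 233 and 244 in Control5 (log2 fold change -0.66, limma adjusted p 0.00135). It lies within Mib1 on the other strand, so reads of Mib1 introns could count for it. Mib1 is a ubiquitin ligase that enables Notch ligands to signal, and it moved the other way, from 3696 and 3848 in Control5 to 7555 and 7379 with NALA (log2 fold change 0.99, SE 0.049, limma adjusted p 8.72e-16). Mib1 stayed just under the fold limit for a call, and passed it with equal library totals (log2 fold change 1.18).

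Among nuclear genes of the respiratory chain, Ndufa4 and Cox6c, both subunits linked to cytochrome oxidase and the 2 of 24 respiratory genes of a fixed list that lay in a stretch, fell by 0.14 and 0.25 (limma adjusted p 0.0268 and 0.00598). Cox6c measured 5105 and 4110 with NALA and 5553 and 5353 in Control5. Ndufa5, a subunit of complex I, measured 2319 and 2177 against 2603 and 2538, 12.5% lower (limma adjusted p 0.0214). The largest fall was that of Chchd7, a mitochondrial protein with a CHCH domain, with 421 and 336 against 510.4 and 478 (log2 fold change -0.39, limma adjusted p 0.0112). Of 10 genes of the chain and its assembly, grouped after the values were seen, 4 fell and 6 did not pass, the latter with log2 fold changes between -0.32 and 0.21. Of all symbols 9.06% fell. Under equal library totals none of the 10 was lower and 2 were higher, with Ndufa4 at 0.053 and Cox6c at -0.054. By that scaling 21 of the 417 genes of the stretches were lower and 160 higher.

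Genes of protein turnover and DNA repair were of interest to the study in aged muscle, and 3 of those it names, Epc1, Ecpas and Wwp1, lay in a stretch. The study names these for lower expression with age, not for NALA. For NALA injection it reports raised pathways of proteostasis and DNA repair and less cytokine signalling, and those pathways as a whole were not tested here. None of the 3 passed on the deposited scale, and at equal totals Epc1 (0.37, limma adjusted p 0.00358) and Wwp1 (0.19, limma adjusted p 0.00324) were higher and Ecpas (0.11, limma adjusted p 0.0850) did not pass. Epc1, a subunit of a histone acetyltransferase complex, measured 696 and 813 with NALA and 671 and 661 in Control5 (log2 fold change 0.18, SE 0.087, limma adjusted p 0.199). Ecpas, a scaffold of the proteasome, measured 10466 and 10512 against 11049 and 11300.5 (-0.091, SE 0.042, limma adjusted p 0.160). Wwp1, a ubiquitin ligase, measured 9724 and 10227 against 9871 and 10150.0 (-0.0054, SE 0.044, limma adjusted p 0.964), and its groups overlapped. The ATPase Vcp, which extracts proteins for degradation, had a log2 fold change of 0.046 (limma adjusted p 0.504), or 0.24 at equal totals (limma adjusted p 1.31e-04), and Ywhaz, an adaptor protein counted as housekeeping, rose by 0.27 (limma adjusted p 0.00206). Over 33 genes of ubiquitin and chaperone function, grouped after the values were seen, 8 rose, 3 fell and 22 did not pass, with a median log2 fold change of 0.061. At equal totals 23 rose and 1 fell, at a median of 0.26 against 0.20 over all genes. Beside Mib1 the rises were of 0.18 to 0.34, in Usp14 (a proteasome-bound deubiquitinase), Ufl1, Rad23b, Otulin, Asb4, Rnf19a and Otud6b. The falls were in Ube2r2, a ubiquitin-conjugating enzyme, by 0.43, in Sem1, a small proteasome subunit, by 0.34, and in Ubap2 by 0.15. Of 12 DNA repair genes, also grouped after the values were seen, Rad23b (0.27) and Xpa (0.67), both of nucleotide excision repair, rose (limma adjusted p 2.88e-05 and 0.00827), and 10 did not pass. At equal totals 5 of the 12 rose and none fell, at a median of 0.26 against 0.20 over all genes. By that scaling 160 of the 417 genes of the stretches rose and 21 fell, against 53 and 59 on the deposited scale. Nbn, a sensor of double-strand breaks, measured 683 and 596 with NALA and 641 and 644 in Control5 (-0.010, limma adjusted p 0.967).

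Some of these genes share exons with a neighbour in the annotation, and whether counting used strand is not given. Reads of Irf5 and Tnpo3, Xpa and Ncbp1, Cox6c and Vps13b, Usp14 and Thoc1, Enho and Dnaic1, and of Penk, Npr3, Mkx, Cttnbp2, Svep1 and Lyn with non-coding or predicted neighbours, cannot be told apart there.

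The mitochondrial genome encodes 13 proteins of the respiratory chain, 2 rRNAs and the tRNAs, and its genes keep their names whatever the nuclear annotation. It took 31.7% and 33.5% of reads with NALA and 29.7% and 30.9% in Control5. The NALA libraries were above the controls by 2.34 percentage points of the means, with an exact two-sided permutation p of 0.333, the smallest that 2 against 2 libraries allow. The normalised reads did not follow this share, since the totals of normalised reads were lower with NALA, and directions of mitochondrial genes are therefore given with both scalings.

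Some mitochondrial genes have near-identical nuclear copies, and their reads cannot be placed. Of the 15 mRNAs and rRNAs 5 (mt-Nd3, mt-Nd4l, mt-Co2, mt-Co3 and mt-Atp6) match a nuclear pseudogene on chromosome 1 at 99% identity or more over at least 90% of their length, and mt-Nd4 does so at 100% over 63.6% of it. The first 300 bases of mt-Nd3 (chrM:9459-9758, plus strand, mm10, GENCODE M21) are printed to show how little separates the 2 loci. Over the 345 bases that align, mt-Nd3 differs from Gm28438 (chr1:24612775-24613119) by 1 base, set in capitals:
mt-Nd3: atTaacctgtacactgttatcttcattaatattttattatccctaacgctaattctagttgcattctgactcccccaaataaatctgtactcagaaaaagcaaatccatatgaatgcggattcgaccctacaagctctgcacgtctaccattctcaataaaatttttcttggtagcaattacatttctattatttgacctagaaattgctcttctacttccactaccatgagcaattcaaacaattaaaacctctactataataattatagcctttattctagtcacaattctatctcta

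Per kilobase, these 5 genes had 4022 to 33106 normalised reads in Control5, and mt-Co1, mt-Nd1, mt-Cytb, mt-Nd2, mt-Nd4, mt-Nd5 and mt-Nd6 had 167646 to 1014128. The 3 others without such a copy were also low, with 34147 for mt-Rnr1, 28856 for mt-Rnr2 and 1020 for mt-Atp8. Level thus did not separate genes with a copy from those without over all of them, though among the mRNAs mt-Atp8 was the sole exception. The search covered annotated nuclear transcripts only, so copies outside these were not tested. The median absolute log2 difference between replicates was 0.33 for the 5 and 0.094 for the other 10, among which mt-Atp8 reached 1.14. For mt-Atp6, replicates measured 9037 and 6476 with NALA and 6191 and 9821 in Control5, so the groups overlapped. For mt-Co2 the Control5 libraries measured 12945 and 32344, and its log2 fold change of -0.54 became 0.12 without Control5 replicate 2.

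Among genes without such a copy over their whole length, several transcripts of complexes I and III were slightly lower with NALA on the deposited scale and did not pass with equal library totals. The complex I subunit mt-Nd1 measured 655461 and 699711 with NALA and 809878 and 827154 in Control5 (log2 fold change -0.27, SE 0.034, limma adjusted p 4.29e-07). The falls of mt-Nd2 and mt-Nd4, also of complex I, and of mt-Cytb, of complex III, were 0.12, 0.17 and 0.14 (limma adjusted p 0.0286, 0.00134 and 0.0117). The sole mRNA gene of the minus strand, mt-Nd6, of complex I, rose from 84812 and 89205 to 92714 and 98925 (log2 fold change 0.14, SE 0.037, limma adjusted p 0.00917). In the annotation mt-Nd6 overlaps mt-Nd5 of the plus strand, and strand use in counting is not given. Reads of the plus strand could therefore count for mt-Nd6. Overlaps are also annotated for mt-Atp6 with mt-Atp8 and mt-Co3, and for mt-Nd4 with mt-Nd4l. The catalytic oxidase subunit mt-Co1, at 1500270 and 1619690 against 1547820 and 1585830, and mt-Nd5 had -0.0073 and 0.059 and did not pass. The rRNAs mt-Rnr1 and mt-Rnr2 had -0.11 and 0.0054 and did not pass. With mt-Co2 (-0.54) and mt-Co3 (0.42, from 11241 and 10465 to 14679 and 14396), 7 of the 15 passed at the adjusted p, 5 lower and 2 higher, and none reached the fold limit. Of all symbols 15.4% passed on the deposited scale, 9.06% lower and 6.32% higher. With equal library totals, which raised the log2 fold changes of these genes by 0.20, 7 passed, all higher. By that scaling 160 of the 417 genes of the stretches were higher and 21 lower. There mt-Nd1, mt-Nd2, mt-Nd4 and mt-Cytb had log2 fold changes of -0.076, 0.081, 0.025 and 0.062 with none past the threshold.

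**Figure D4:**
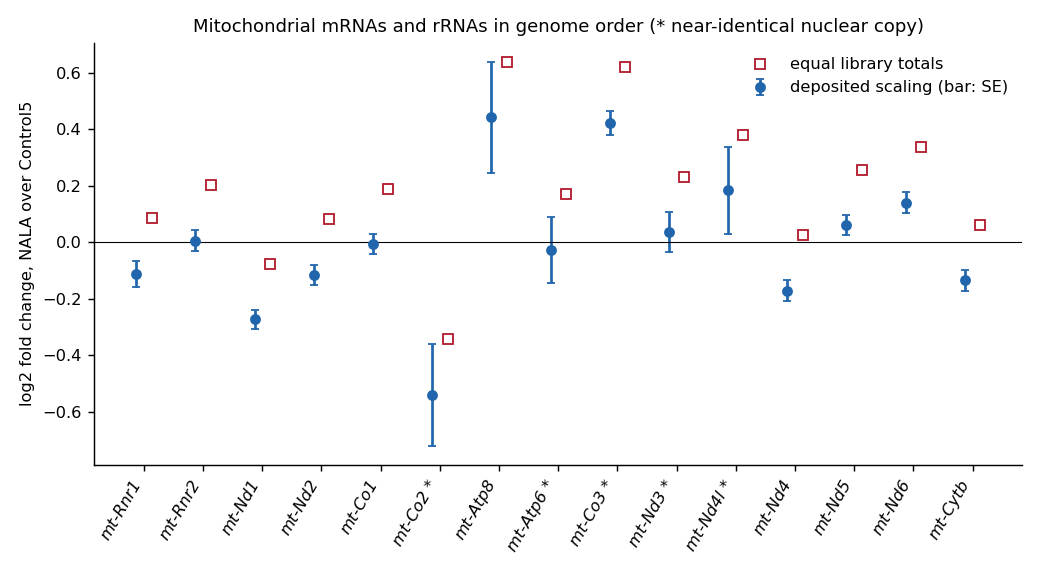
Log2 fold change, NALA over Control5 (y axis), of the 15 mitochondrial mRNAs and rRNAs in their order along the genome (x axis), on the deposited scale with its SE (blue) and with equal library totals (red squares). All red squares lie 0.20 above the blue points, and stars mark the 5 genes with a near-identical nuclear copy.

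The muscle experiment with MS-275 gives the same genes under another injection, from other mice with other controls and a table normalised on its own, so values are set side by side without a test of the difference. Its list had similar gaps in its names, and 415 of the 417 genes of the stretches were tested there. Its normalised reads summed to 6693620 and 9768110 after MS-275 and to 16121300 and 15308300 in Control4. No fit at equal totals was made for that experiment, so its directions are given on the deposited scale alone. Pdk4 measured 19610 and 8200 after MS-275 and 83036 and 5352 in Control4, and those control libraries differed 15.5-fold from each other, unlike the Control5 libraries. Retreg1 measured 2967 and 3223 after MS-275 and 11419 and 8021 in Control4 (log2 fold change -1.63, limma adjusted p 0.0224), where with NALA it had risen. The log2 fold changes of Col1a2, Svep1, C1qtnf3, Irf5, Lyn and Ddx58 after MS-275 were 3.25, 3.04, 2.52, 2.52, 2.17 and 1.89, all past an adjusted p of 0.05 (limma), where with NALA they were between -1.98 and -0.49. In that experiment 16.6% of all genes passed. These genes were chosen after the values were seen, and how many genes of the stretches moved in opposite directions was not counted. Penk was higher in both, with 3.12 after MS-275 (limma adjusted p 0.0135). Tpm2 was at 59854 and 63327 after MS-275 and 333560 and 250851 in Control4 (-2.23, limma adjusted p 0.0767). Musk had 247 and 399.7 against 161 and 268, with overlap (0.59, limma adjusted p 0.306).

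**Figure D5:**
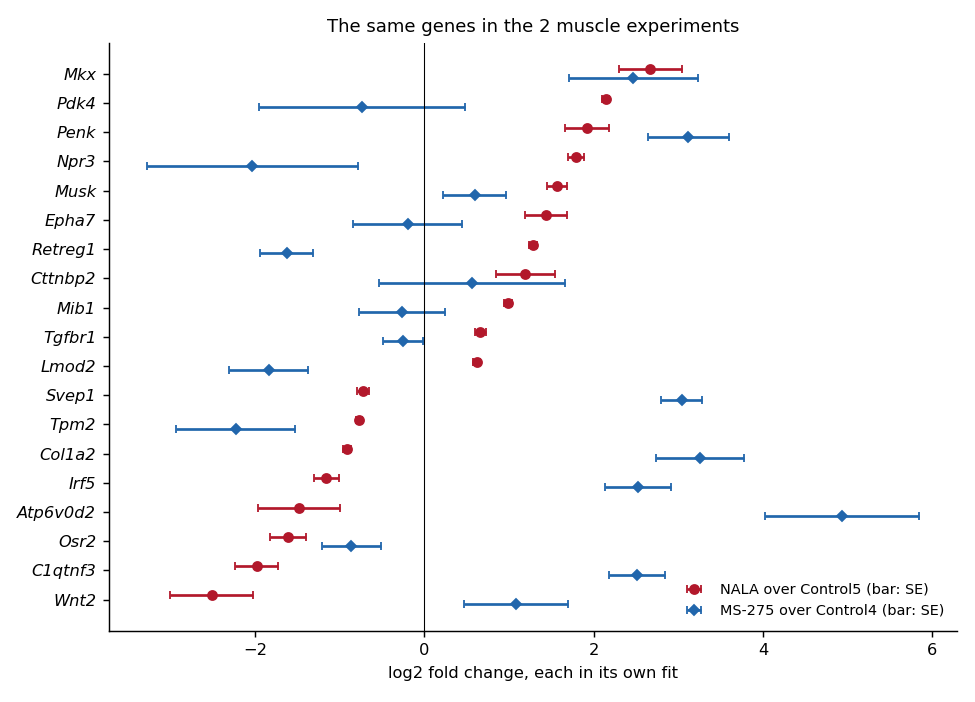
Log2 fold change (x axis, with its SE) of 19 genes of the stretches (y axis) with NALA over Control5 (red) and MS-275 over Control4 (blue), each from its own fit with 2 libraries a group. Retreg1, Lmod2, Svep1, Col1a2, Irf5, Atp6v0d2 and C1qtnf3 are among the genes that lie on opposite sides of 0, and the blue bars are wider. Pdk4 does so too, but its Control4 libraries lay far apart.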

How the data were processed

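Gastrocnemius RNA was sequenced as paired reads in 2 NALA and 2 Control5 libraries, grouped by title. According to the methods, the authors used Trim Galore (0.6.10), HISAT2 (2.2.1) to mm10, SAMtools (1.7), featureCounts (2.0.6) and DESeq2 (1.34.0). The values deposited by the authors are a signal, namely the count of each gene over a library size factor. The annotation and strand setting are not given in the sources used here. In 100% of values the signal was a whole multiple of 1 read, within 0.001 of a read, and reads were recovered.

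Values were tested as log2(value + 1) with limma (3.58.1, eBayes with trend, R 4.3.3) over genes with means of 10 or more, adjusted by Benjamini-Hochberg. This scale understates changes of low genes. On simulated data for NALA against Control5, with 8895 genes, 46% of 50 genes simulated at a log2 fold change of 1 were called, 88% of 50 at 2, and 3 unchanged genes. The simulated spread was set by level alone, as the trend in the fit assumes. Genes whose spread departs from that trend were not simulated, so these figures may be too favourable for the real data. The members and lists were chosen with earlier results of these data known. The rule first written for stretches, with anchors from gene lists, kept Ckm and was replaced after the data were seen by the IMR90 anchors (GENCODE M21, pass score from shares of 0.95 inside and 0.25 outside, smallest score 15). The anchor rule read control libraries alone.

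Named were the mitochondrial mRNAs and rRNAs, genes of the lists inside stretches, and up to 10 largest called rises and falls with means of 100 or more and no overlap between groups. Other genes were named after their values were seen. None of the lists glycolysis, endothelial, macrophage, nerve, red cell, satellite cell and inflammation had a gene in a stretch, and of the adipocyte list Lep did (log2 fold change 0.25, limma adjusted p 0.382). Nuclear copies were searched with blastn (2.17.0) among annotated nuclear transcripts. Replicates were compared by chi-square per gene (4.96 in NALA, 3.85 in Control5), and none lay within sampling noise. Alternatives included edgeR (4.0.16) and DESeq2 (1.42.0) on recovered reads. IMR90 libraries other than the 4 controls were not used here. Python (3.11.15), pandas (2.3.3) and scipy (1.17.1) were used.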

Additional observations from a re-analysis of the deposited data

How the results depend on the processing

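The 298 calls over all symbols became 143 with a filter at a mean of 50, 590 at a fold limit of 0.58, 1368 with no fold limit and 21 without the intensity trend in eBayes. That last fit left 2 of the 13 calls in the stretches (Pdk4 and Npr3) and 0 of the 7 mitochondrial genes. On recovered reads edgeR made 299 calls, 291 of them shared, and DESeq2 made 204, of which 202 were shared. The calls in the stretches became 5 when a stretch ended at its first failing anchor and 60 with anchors from the gene lists. An anchor level of 30 and a score of 8, both chosen after seeing the data, gave 14 and 15. The count of mitochondrial genes that passed became 11 with equal totals outside mitochondrial genes and 4 with DESeq2. Leaving out 1 library gave 259 to 294 calls, 15 to 17 in the stretches, 4 to 9 mitochondrial genes, a median absolute log2 fold change of 0.25 to 0.26 and a mitochondrial share difference of 1.46 to 3.22 points. The replicate block gave 311 calls, 13 in the stretches and 10 mitochondrial genes, and replicates of the same number did not deviate together (correlation -0.013), so the numbers do not pair the libraries. The alternative with anchors within 4-fold was not run, because the anchors now come from another tissue.

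The log2 fold changes of some mitochondrial and nuclear genes reversed. Scaling to equal totals raised the median over all genes from 0.0049 to 0.20, or to 0.25 with totals outside mitochondrial genes. The falls that these scalings reversed were smaller than that rise. For the other fits the cause was not tested. With equal library totals mt-Nd2 was 0.081, mt-Nd4 0.025, mt-Cytb 0.062, mt-Co1 0.19, mt-Atp6 0.17, mt-Rnr1 0.084, Ecpas 0.11, Ndufa4 0.053 and Wwp1 0.19. With equal totals outside mitochondrial genes they were, in the same order, 0.13, 0.074, 0.11, 0.24, 0.22, 0.13, 0.16, 0.10 and 0.24. With quantile normalization mt-Nd2 was 0.22, mt-Nd4 0.051 and mt-Rnr1 0.20. Over the fits without 1 library, mt-Nd3 ranged from -0.057 to 0.13, mt-Nd4l from -0.29 to 0.66, mt-Co1 from -0.063 to 0.048, mt-Co2 from -1.20 to 0.12, mt-Atp6 from -0.36 to 0.31, mt-Atp8 from -0.13 to 1.01, mt-Rnr2 from -0.047 to 0.058 and Wwp1 from -0.042 to 0.031.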

Other observations

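Further genes of the stretches passed at the adjusted p (limma, Benjamini-Hochberg) and belong to none of the groups above. Tmem38b, an intracellular cation channel of the reticulum, measured 3064 and 3069 with NALA and 2122 and 2261 in Control5 (log2 fold change 0.49), while Asph, whose locus also encodes the reticulum proteins junctin and junctate, had -0.14. Kif5b, the heavy chain of a kinesin motor, rose from 3347 and 3514 to 4710 and 4706 (0.46). Myo10, an unconventional myosin, rose by 0.30. Nr4a3, an orphan nuclear receptor, measured 348 and 447 against 286 and 312 (0.40), and Trp53inp1, a target of p53, had 0.34. Cav1, the main caveolin outside muscle fibres, fell from 6421 and 6528 to 5440 and 5611 (log2 fold change -0.23), where the muscle caveolar gene Cavin4 had risen. Abca1, a cholesterol exporter, fell by 0.27. In each of these genes both NALA libraries lay on one side of both controls. The same held in 64.7% of the 417 genes of the stretches and in 54.2% of all genes tested. With equal library totals the 3 falls no longer passed, and Asph, Cav1 and Abca1 were at 0.057, -0.032 and -0.074.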
